A study of Mus musculus with 2 samples.

Results

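Open regions in coding exons are stretches of accessible chromatin whose strongest point lies on protein-coding sequence, away from the annotated promoters of protein-coding genes. They were taken from the 75148 open regions that passed a reproducibility threshold between replicates in mouse granulocyte monocyte progenitors (GMP). A region was kept where its summit lay inside an annotated coding sequence (CDS, GENCODE vM21) and over 1 kb from every transcription start site (TSS) of every protein-coding gene. This left 1002 regions, 1.33% of all regions and 1.74% of the 57739 regions over 1 kb from a TSS, which are called distal here. The other distal regions have their summits in exons outside the CDS (2939), in introns (29462) or between genes (24336). A further 17409 regions have their summits within 1 kb of a TSS.

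GMP are bone marrow cells on the way to becoming neutrophils or monocytes. They came from C57BL/6J mice, male, adult and 5 to 6 weeks old, with no genetic change or treatment in the labels. ATAC-seq, in which the transposase Tn5 cuts accessible DNA and the released fragments are sequenced, was run on 50000 cells in each of 2 biological replicates that carry the same donor label. The deposited files list regions with a fold enrichment each, the authors' own value, and hold no read counts, so depth is unknown and no counting error can be given. With 1 group there is no comparison of conditions, and the spread between the lists of replicates 1 and 2 is the error that can be shown. All 14 GMP and early granulocyte or monocyte markers had an open region with its summit within 1 kb of a TSS. Among them were Mpo, Elane, Cebpa and Csf3r. Over all protein-coding genes, 62.2% had such a region. Of markers of other cells, 2 of 5 erythroid, 2 of 3 megakaryocyte, 2 of 4 B cell, 0 of 4 T and NK cell, 1 of 3 mast cell and eosinophil, 3 of 3 stroma and endothelium and 0 of 3 hepatocyte, muscle and neuron genes had one. Their part in the results was not tested, and in a bulk sample few cells with an open site and many cells that open it rarely cannot be told apart.

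Coding exons carry the codons of a protein, and the same bases can also be read by transcription factors, so that an exon can hold an enhancer or an insulator site used by its own or by another gene. In granulocyte and monocyte progenitors, distal open regions are known above all for sites of PU.1 and other ETS factors, C/EBP and RUNX factors, which set up the myeloid programme. CTCF, a zinc finger protein that marks the borders of chromatin loops, binds in most cell types at sites that include exons. Stretches rich in CpG dinucleotides, the islands typical of promoters, also occur inside genes, often at genes of developmental regulators.

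The windows below show how recognition sites lie within codons. Each spans 50 bp on either side of the summit of the region with the highest fold, among those in both replicates' lists, that holds the named motif wholly within coding sequence. Sequences are from the GRCm38 (mm10) reference, written 5′ to 3′ on the strand of the host gene, with the motif in capitals.
Ap1g1, CTCF, chr8:109853566-109853666, plus strand: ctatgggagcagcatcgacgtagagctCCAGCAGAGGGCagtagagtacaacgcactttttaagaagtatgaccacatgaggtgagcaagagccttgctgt
Rasal2, PU.1 then CEBP, chr1:157299141-157299241, minus strand: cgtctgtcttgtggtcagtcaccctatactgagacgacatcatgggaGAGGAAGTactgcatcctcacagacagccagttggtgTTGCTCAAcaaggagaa
Sgtb, RUNX, chr13:104139736-104139836, plus strand: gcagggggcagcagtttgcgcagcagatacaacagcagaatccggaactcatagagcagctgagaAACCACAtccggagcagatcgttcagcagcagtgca
March4, AP-1, chr1:72428706-72428806, minus strand: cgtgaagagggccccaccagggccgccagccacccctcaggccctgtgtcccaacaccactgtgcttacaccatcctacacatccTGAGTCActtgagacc
Rpgrip1, IRF, chr14:52133758-52133858, plus strand: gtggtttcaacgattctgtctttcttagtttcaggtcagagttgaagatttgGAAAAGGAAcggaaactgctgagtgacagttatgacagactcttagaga
Abca13, ETS, chr11:9373305-9373405, plus strand: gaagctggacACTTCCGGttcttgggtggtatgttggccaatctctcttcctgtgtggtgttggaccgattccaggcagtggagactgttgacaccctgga
Gfpt1, KLF/SP, chr6:87085263-87085363, plus strand: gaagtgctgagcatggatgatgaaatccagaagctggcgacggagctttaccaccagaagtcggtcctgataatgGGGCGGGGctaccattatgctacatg

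The motifs of factors with longer sites were searched on both strands as GAGGAAGT for PU.1, TTGCNNAA for CEBP, GAAANNGAA for IRF, CCGGAAGT for ETS and GGGCGGGG for KLF/SP, and CTCF by its consensus. Shorter motifs were TGTGGTT for RUNX factors and, as sites that read alike on either strand, TGANTCA for the dimers called AP-1 and CAGCTG for the E-box, with AGATAA searched for the GATA factors. PU.1 and ETS share their last letters but differ before them, so no match can be both, and 0 regions held both. Of the 1002 regions, 82 held PU.1, 87 held CEBP and 7 held PU.1 and CEBP together. Whether PU.1 and CEBP matches meet more often than their single shares would give was not tested. In Rasal2, which encodes a GTPase-activating protein for Ras, the PU.1 match was centred 0.5 bp from the summit and lay 29 bp from the CEBP match. In Ap1g1, the gamma subunit of the AP-1 clathrin adaptor, the window ran past the end of the exon and was 80.2% coding. The Rpgrip1 window (a protein of the photoreceptor cilium) was 72.3% coding, and the Rasal2, March4, Abca13 and Gfpt1 windows were wholly coding. A match is a string of letters and does not show that the factor was bound.

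Open regions were denser on distal coding sequence than in introns or between genes. The 1002 regions corresponded to 38.7 per Mb of distal coding sequence, against 28.4 per Mb of intron, 17.2 per Mb of intergenic sequence and 39.4 per Mb of exon outside the CDS. The order was the same within each replicate. Replicate 1 gave 825 coding-exon regions, or 31.9 per Mb, beside 23.9 in introns and 14.8 between genes. Replicate 2 gave 651, or 25.2 per Mb, beside 18.9 and 11.7. Other exons stood slightly above coding exons in each, at 33.6 and 26.7 per Mb. Coding exons held 1.68% of distal regions in each replicate's list although they are 1.01% of distal bases.

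**Figure D1:**
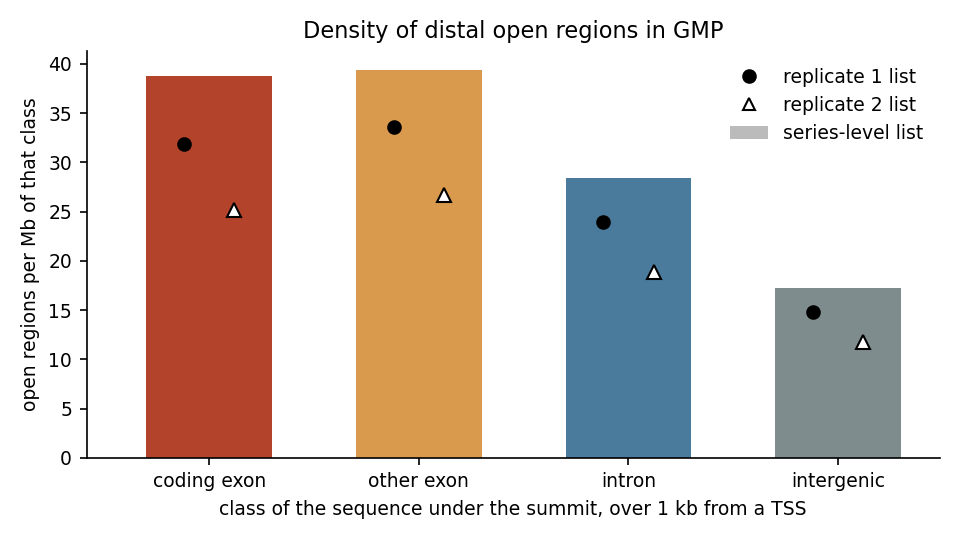
Open regions over 1 kb from a TSS per Mb of the sequence class under their summit. Bars are the series-level list, circles replicate 1 and triangles replicate 2. In each list coding and other exons stand above introns, and introns above intergenic sequence.

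Strength was close to that of other distal regions. The median fold enrichment was 7.59 (quartiles 5.88 and 10.1) in coding exons, 7.74 in introns, 8.20 between genes and 8.78 at promoters. In the list of replicate 1 the medians were 8.80, 8.83, 9.22 and 9.51 in the same order, and in that of replicate 2 they were 7.35, 7.47, 7.77 and 8.28. The order was the same in each list, with small steps between coding exons and introns. Coding-exon regions ranged from 1.89 to 22.1, and 261 (26.0%) reached a fold of 10, against 28.4% of all distal regions. Of the 1000 distal regions with the highest fold, 12 were in coding exons, which hold 1.74% of all distal regions. Their median width was 467 bp (150 to 1658), and together they covered 525 kb.

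Most of these regions also stood in the lists of the single replicates. The series-level list was made from the same libraries and selected for their agreement. Overlap and close summits are therefore partly given by its construction and are no independent check. Of the 1002, 600 (59.9%) overlapped a region in the thresholded lists of both replicates, beside 61.6% of all distal regions. A further 177 were in the thresholded list of replicate 1 only, 38 in that of replicate 2 only, and 187 (18.7%) in neither. In the replicates' looser lists, 97.7% of the 1002 overlapped a region of both. Presence in both thresholded lists went with fold. In 4 equal groups of distal regions by fold, the share of coding-exon regions rose from 23.4% (64 of 274) through 51.0% and 77.0% to 96.1% (221 of 230). Intron regions gave 26.5%, 47.6%, 76.8% and 97.5% in the same groups. Summits lay close together, with a median shift of 4 bp in either replicate. Of the overlapping summits, 95.4% in replicate 1 and 96.6% in replicate 2 were also in distal coding sequence. Both replicates placed the summit in coding sequence for 556 regions (55.5%).

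Among the 600 shared regions, the replicate 1 fold was the higher one in 565 (94.2%), with a median ratio of 1.25. Other distal regions had the replicate 1 value higher in 92.4%, with a ratio of 1.22. Replicate 1 values therefore lay above replicate 2 values for distal regions at large, and a single gene's difference between replicates carries that offset. Across the 600 regions the Spearman correlation of the folds was 0.867, a description of regions that share the same 2 libraries (0.876 for all distal regions).

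**Figure D2:**
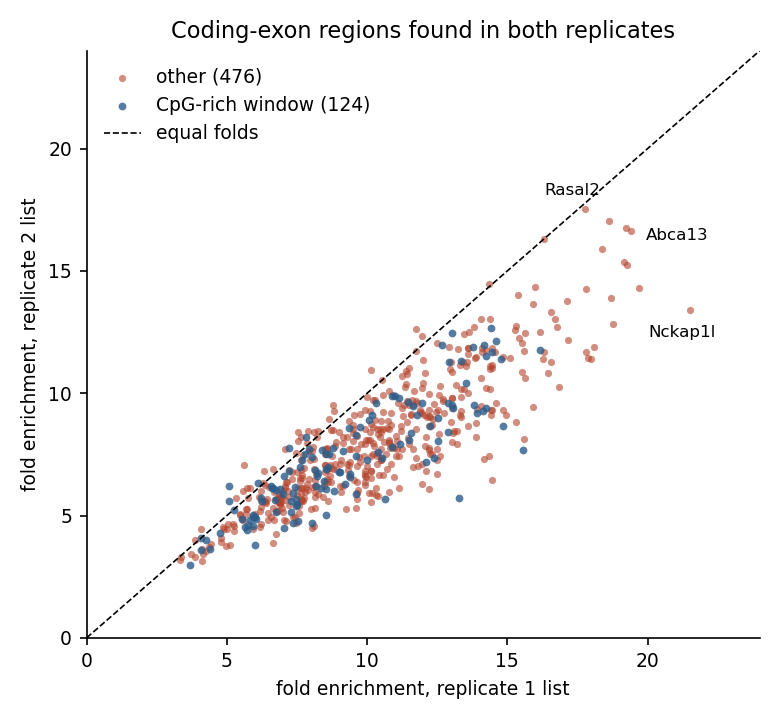
Fold enrichment of the 600 coding-exon regions in both lists, replicate 1 on the x axis and replicate 2 on the y axis, with CpG-rich windows in blue and the line of equal folds dashed. In all, 94.2% of the points lie below the line, and CpG-rich regions run through the whole range below the strongest.

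The strongest coding-exon regions lay in genes of varied function, from leukocyte genes to olfactory receptors. The strongest was in Abca13, an ABC transporter gene, at chr11:9373054-9373985 in coding exon 30 of 62. Its fold was 22.1 in the series-level list, 19.4 in replicate 1 and 16.6 in replicate 2, and it lay 180 kb from the nearest TSS. Rasal2 followed with 20.1 (17.8 and 17.5 in replicates 1 and 2) at chr1:157299041-157299366 in coding exon 2 of 18. Its summit is repeat-masked in the reference, as are 41 of the 1002 (4.09%, against 10.4% of all distal summits). Nckap1l, the haematopoietic subunit of the WAVE actin regulatory complex, had 19.2 (21.5 and 13.4) at chr15:103462317-103463114 in coding exon 7 of 31, with a PU.1 match 38.5 bp from the summit. Msr1, the macrophage scavenger receptor, had 16.2 (16.0 and 14.4) in coding exon 5 of 10 with no open region at its own promoter.

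Adhesion molecules and receptors were among the rest of the top 20. Alcam, the adhesion molecule CD166, had a fold of 19.1 and Cdh17, a cadherin of the intestine, also 19.1. Ncam2, a neural adhesion molecule, had 17.3. Col23a1, a transmembrane collagen, reached 18.1 in a coding exon of 45 bp, so that only 7.21% of the region was coding. Notch3, a receptor of the Notch pathway, had 16.9 (18.7 and 12.8) and no open promoter, and Bmpr1b, a receptor for bone morphogenetic proteins, 16.9 with an open one. Genes with roles inside the cell included Snx14 (18.7, a sorting nexin), Cep63 (17.3, a centrosome protein), Pop1 (16.4, a subunit of RNase P), Slc44a1 (16.3, a choline transporter) and Gfpt1 (16.3, the first enzyme of hexosamine synthesis). Olfr2 and the polymorphic pseudogene Olfr650-ps1, both intronless in their coding part, had 18.2 and 19.2. All 20 were in both replicates' lists, and the strongest region that was not, in Zfp953, ranked 75 by fold.

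Few regions filled an exon from edge to edge. The median region was 54.0% coding, 152 (15.2%) were wholly coding, and 6 (0.599%) had both edges within 25 bp of the edges of their coding interval. Regions that were at least 50% coding (554) had a lower median fold than the other 448, at 7.08 against 8.46, and a higher GC content, at 60.4% against 54.5%. They were in both lists in 55.6% of cases against 65.2%. Most regions thus reached into flanking intron or untranslated sequence, and the widest were those in Lor (loricrin, 1658 bp), Clasp1 (a microtubule-binding protein) and Zfp697.

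By place in the gene, 579 summits (57.8%) were in internal coding exons, which hold 72.2% of distal coding bases. The last coding exon held 284 (28.3%, against 18.3% of bases), the first 63 (6.29% against 4.13%) and single coding exons 76 (7.59% against 5.37%). Internal exons had the highest median fold of these, 8.21, beside 6.91 in last exons and 6.60 in single ones. With the coding sequence cut into 5 equal parts, the opening part held 12.1% of summits and the closing part 28.4%, against 15.1% and 22.9% of bases. The coding interval under a summit had a median length of 221 bp, and all intervals had a median of 124 bp. These medians cannot show whether summits favoured long intervals, because a longer interval also has more bases for a summit to fall on. Shares of regions and of bases can be compared. Intervals under 150 bp held 26.9% of regions and 35.1% of bases, and those of 1000 bp or more 16.8% and 16.9%.

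**Figure D3:**
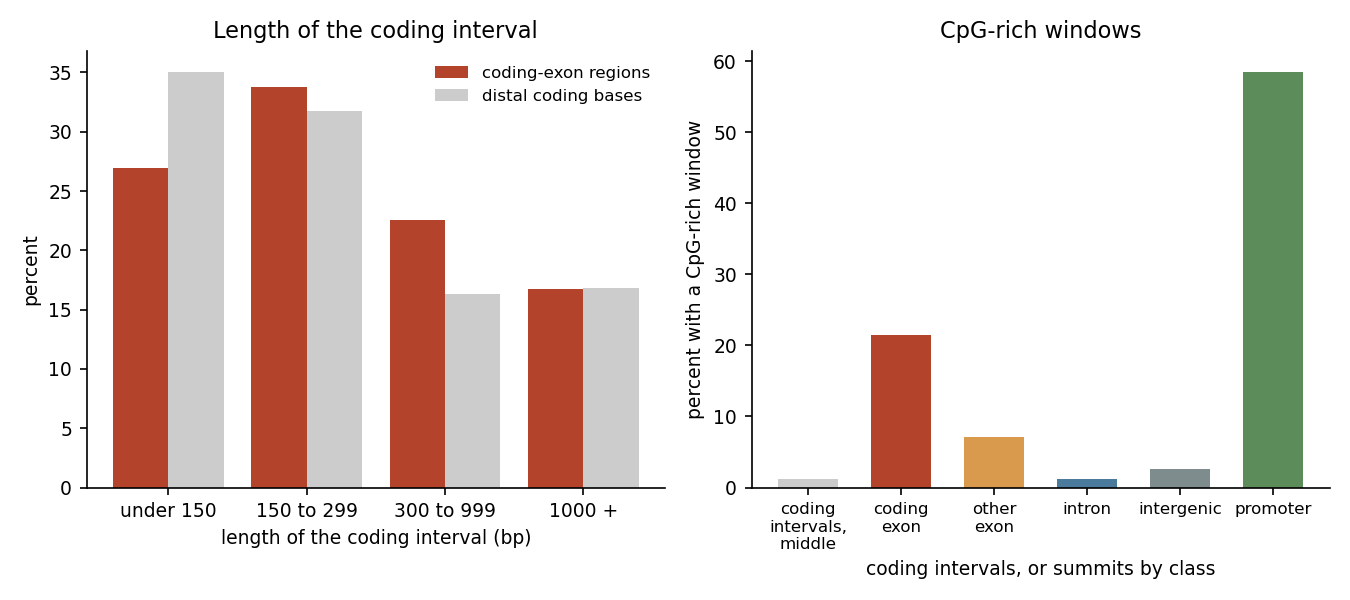
Left, percent of coding-exon regions and of distal coding bases by length of the coding interval. Right, percent of windows, 250 bp to either side, that are CpG-rich at the middle of distal coding intervals and at summits of each class: 21.5% of coding-exon summits, against 1.18% of coding interval middles and 1.27% of intron summits.

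Many coding-exon regions had the base composition of a CpG island. Within 250 bp of the summit, 215 of 1002 (21.5%) had at least 50% GC and an observed over expected CpG ratio of at least 0.6, against 2.51% of all distal summits. The share was 7.15% in other exons, 1.27% in introns, 2.67% between genes and 58.5% at promoters. Middles of distal coding intervals reached it in 1.18% of 148307 windows, most of which reach into introns because the median interval is 124 bp. Among coding-exon regions the share was 8.39% in intervals under 300 bp (51 of 608) and 41.6% in longer ones (164 of 394). In the lists of replicates 1 and 2 the coding-exon share was 21.5% and 21.0%, and the intron share 1.36% and 1.43%. The median GC content within 50 bp of the summit was 57.4%, against 50.5% of intron and intergenic summits and 49.5% of coding interval middles.

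The CpG-rich regions sat in another part of the gene than the rest. Their coding interval had a median length of 701 bp against 187 bp, 48.8% against 22.7% were in the last coding exon, and 79.5% against 48.7% were mostly coding. They lay closer to a TSS, at a median of 3.11 kb against 5.97 kb. A match to CTCF, PU.1, CEBP or RUNX was present in 19 of them (8.84%) and in 232 of the other 787 (29.5%). CTCF alone was in 11 CpG-rich regions (5.12%), near its 5.39% over all coding-exon summits. KLF/SP, not among these motifs, went the other way, at 4.19% against 1.40%. The groups were split by GC and CpG content, and motif letters differ in both, so these contrasts cannot be told apart from the split. In introns CEBP went from 14.3% between 40% and 50% GC to 3.09% from 60% up, and KLF/SP from 0.254% to 8.65%. The CpG-rich regions had a median fold of 6.73 against 7.87, and 57.7% against 60.5% were in both lists. The host promoter was open for 54.9% of them and for 77.3% of the rest. CpG-rich regions with a high fold included Lhx2 (fold 14.6), whose promoter was open, and Neurod1 (13.2), a neuronal transcription factor with a single coding exon, Apoa1 (12.6), the main protein of high-density lipoprotein, and Pomc (13.4), the precursor of pituitary hormones, whose promoters were not. These 4 regions were in both lists.

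Open regions on coding sequence also lay closer to start sites than the 1 kb limit. The 35 regions with coding summits 900 to 1000 bp from a TSS, just outside the rule, had a median fold of 5.35, and the 26 at 1000 to 1100 bp, just inside, 6.69. Of the 215 at 500 to 1000 bp, 47.4% were CpG-rich. Inside the rule the CpG-rich share fell with distance, from 42.2% of 128 regions at 1000 to 1500 bp to 10.4% of the 297 beyond 10 kb, while the median fold went from 6.48 to 8.24. The median distance of all coding-exon regions from a TSS was 5.22 kb, against 16.8 kb for all distal regions. It was 9.51 kb in other exons, 13.0 kb in introns and 25.5 kb between genes. The distance of distal coding bases was not measured, so these medians cannot be told apart from where each class lies.

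CTCF and PU.1 letters were about as frequent at coding-exon summits as at intron summits, and those of CEBP less so. For CEBP this direction turns between 40% and 60% GC. A CTCF match lay within 50 bp of 54 summits (5.39%), against 5.25% of intron and 6.83% of intergenic summits, 5.01% of all regions and 0.0668% of windows at the middle of coding intervals. PU.1 matches were at 82 summits (8.18%), against 8.99%, 8.66% and 7.54%, with 0.746% at interval middles. CEBP matches were at 87 (8.68%), against 10.8%, 10.7% and 9.27%, with 4.44% at interval middles. The replicates' lists gave CEBP shares of 8.61% and 8.45% in coding exons and 11.0% and 11.5% in introns. In windows 500 bp to either side of the coding-exon summits the shares were 0.150% for CTCF, 0.649% for PU.1 and 2.84% for CEBP.

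Other motifs differed more between coding and non-coding summits. RUNX matches were at 48 coding-exon summits (4.79%) against 7.58% of intron summits, and the replicates' lists gave 5.21% and 5.68% in coding exons and 7.74% and 7.72% in introns. AP-1 matches, the sites of FOS and JUN dimers, were at 34 (3.39%) against 6.66%, with 3.27% and 3.53% in the replicates and 6.67% and 7.08% in introns. IRF matches were at 21 (2.10% against 4.28%) and GATA matches at 15 of 1002 (against 3.63%). Over all regions the shares were 6.21% for RUNX, 5.65% for AP-1, 3.74% for IRF and 3.11% for GATA. In the other direction stood the E-box, at 106 (10.6% against 7.91%, 7.50% over all regions), ETS at 9 (0.898% against 0.431%, and 1.15%) and KLF/SP at 20 (2.00% against 1.41%, and 4.54%), a direction that for KLF/SP turns at matched GC content. E-box letters were also common at interval middles, at 8.74%, while those of ETS (0.285%) and KLF/SP (0.220%) were rare there. IRF (3.65%) and GATA (3.89%) matches were more frequent at interval middles than at coding-exon summits, and RUNX (1.59%) and AP-1 (2.21%) matches less so.

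**Figure D4:**
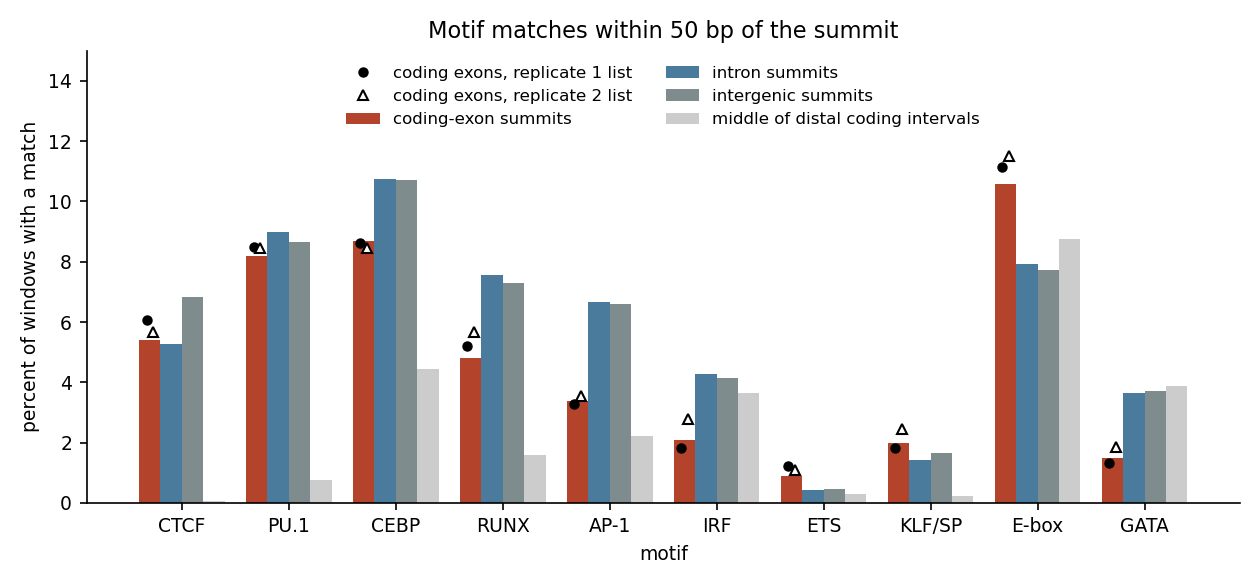
Percent of windows with a motif match within 50 bp of the centre, for coding-exon, intron and intergenic summits and for the middle of distal coding intervals. Circles and triangles give coding-exon summits in the lists of replicates 1 and 2. CTCF and PU.1 are near 0 at interval middles (0.0668% and 0.746%) and reach 5.39% and 8.18% at coding-exon summits.

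Base composition moved with these shares. Of the coding-exon windows, 39.7% had at least 60% GC, against 8.56% of intron windows. Between 40% and 50% GC, coding-exon windows held PU.1 in 8.62% and CEBP in 20.1%, against 9.57% and 14.3% in introns. Between 50% and 60% GC, the 419 coding-exon windows held PU.1 in 10.7% and CEBP in 9.31%, against 9.21% and 7.90% in introns. From 60% up the shares were 5.28% and 2.76%, against 4.84% and 3.09%. The direction for CEBP thus turned between 40% and 60% GC. RUNX was at 10.3% against 8.98% between 40% and 50% GC, at 5.73% against 6.79% between 50% and 60%, and at 1.51% against 3.53% from 60% up. IRF was at 5.75% in both classes in the lowest of these ranges, then at 1.91% against 3.11% and at 0.251% against 1.39%. AP-1 was lower in coding exons in each of the 3, at 4.598% against 7.25%, 3.82% against 6.45% and 2.26% against 4.84%. CTCF was also lower in each, at 3.45% against 3.65%, 5.97% against 6.72% and 5.78% against 7.50%. For KLF/SP the direction turned, with 0% against 0.254%, 0.477% against 1.25% and 4.52% against 8.65%, and for the E-box it turned between 50% and 60% GC only, at 9.31% against 9.98%. What part GC content had in the differences was not tested.

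Coding matches were found in more than 1 reading frame for each of these motifs. Of the 82 PU.1 windows, 75 had a match wholly in coding sequence, 43 on the coding strand and 32 on the other. Their first base fell on codon positions 1, 2 and 3 in 36, 26 and 13 cases, and at interval middles in 42.9%, 32.8% and 24.4% of matches. The 46 coding CTCF matches split 21 and 25 by strand, and the 37 RUNX matches 14 and 23. Of 16 coding IRF matches, 15 read GAAANNGAA on the coding strand, and 79.6% of matches at interval middles did so as well. The 27 coding AP-1 matches began at codon position 2 in 15 cases and 3 in 12, and never at position 1, where the letters TGA would be an in-frame stop codon. In March4, shown above, the match began at position 2.

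The regions were spread over 957 host genes. Of these, 913 held 1 region, 43 held 2 and 1 held 3. The gene with 3 was Tchh, which encodes trichohyalin, a structural protein of the hair follicle, with folds of 6.60, 7.56 and 4.04 along 1 coding exon of 4659 bp. Those with 6.60 and 7.56 were in both lists and the other in replicate 1 only (4.13), and all 3 were CpG-rich. Of the 948 protein-coding hosts, 695 (73.3%) had an open region at their own promoter, beside 66.8% of all genes with distal coding sequence. In the lists of replicates 1 and 2 the hosts stood at 68.6% and 65.6% beside 65.4% and 61.9% of genes. Hosts also had more distal coding sequence, with a median of 1.53 kb against 0.942 kb. The 267 regions in hosts without an open promoter had a median fold of 7.66, those in other hosts 7.51.

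Developmental transcription factor genes carried the most of these regions per Mb among the 12 lists described. A region lay in the coding sequence of 4.32% of all protein-coding genes, at 38.5 per Mb of distal coding sequence. Of 176 genes of developmental factor families (homeobox, Pax, Sox, Fox and the like), 21 (11.9%) had one, at 149.0 per Mb. Replicates 1 and 2 gave 94.8 and 81.3 per Mb for this list, against 31.7 and 25.1 for all genes. The 22 regions had a median fold of 5.98, 12 were in both lists, 13 were CpG-rich and their median distance from a TSS was 2.05 kb. The strongest were in Lhx9 (16.2), Foxr1 (16.0), Lhx2 (14.6), Foxn2 (11.6) and Sall2 (9.30), which encode LIM-homeodomain, forkhead and zinc finger regulators of development.

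Of 93 haematopoietic transcription factors, 8 had 9 regions, at 88.5 per Mb, and 88.5 and 68.8 per Mb in replicates 1 and 2. Klf1, the erythroid Krüppel-like factor, had a fold of 12.4 (13.8 and 9.53) at chr8:84902821-84903658, in coding exon 2 of 3 and 1.27 kb from a TSS. No summit lay within 1 kb of a Klf1 TSS, so its promoter was counted as not open. The region's edge lies nearer to the TSS than its summit does. The region was CpG-rich. Stat6, which relays interleukin-4 signals, had 9.17 (10.9 and 7.11). Lmo2, a bridging subunit of blood stem cell factor complexes, had 6.81, Bach2, a repressor of the BTB and leucine zipper class, 6.73, and Tal1, an E-box factor of early blood cells, 6.44. All 5 were in both lists.

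Genes of granulocyte and monocyte function rarely held such regions, as was true of genes at large. Among 64 cytokine receptor and signalling genes 4 (6.25%) had one. They included Flt3, a receptor of early progenitors, with 9.62 (8.83 and 9.29), Tnfrsf1b, a receptor for tumour necrosis factor, with 4.70 and in replicate 1 only (5.02), and Il17ra, the interleukin-17 receptor, with 4.58 (4.79 and 4.09). Among 42 granule, antimicrobial and oxidase genes only Ms4a3, a membrane protein of GMP, had one, with 6.72 (7.17 and 6.01). Flt3 was also the only one of 43 genes of other blood lineages.

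Chromatin regulators held these regions at about the average density but with a higher median fold. Of 68 genes 8 (11.8%) had 9 regions, at 33.7 per Mb, with a median fold of 12.5 against 7.59 for all. The remodeller genes Chd1 (14.9), Chd7 (12.5) and Chd9 (12.5), the deacetylase Hdac4 (fold 14.50) and the methyltransferase Prdm2 (13.4) led the list, and these 5 regions were in both replicates. The Hdac4 and Chd9 windows held a PU.1 match, and the Chd1, Chd7 and Prdm2 windows held none of the motifs searched.

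The remaining lists lay below the average per Mb. Genes of other tissues, 9 of 55 with a region, came to 22.1 per Mb, kinesins, dyneins and unconventional myosins (10 of 85) to 23.2, transporters (19 of 384) to 32.2, C2H2 zinc finger genes (15 of 454) to 22.7 and protocadherins and olfactory receptors (5 of 1162) to 23.4. Collagens and laminins, with 2 of 55, had 8.45. In the zinc finger list all 17 regions were mostly coding, led by Zfp57 (13.7), a guardian of imprinted methylation. Kif27 (13.3), a kinesin, Slc15a1 (13.8), a peptide transporter, and Pcdh8 (9.59), a protocadherin, led their lists apart from genes already named. In the lists of replicates 1 and 2, kinesins and their like came to 18.6 and 11.6 per Mb, transporters to 20.3 and 18.6, cytokine receptor and signalling genes to 18.4 in either, and granule genes to 27.7 and 55.4 with 1 and 2 regions. Collagens and laminins came to 8.45 and 12.7. Against 31.7 and 25.1 for all genes, the granule list alone changed sides, and lists of so few regions cannot be ranked.

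**Figure D5:**
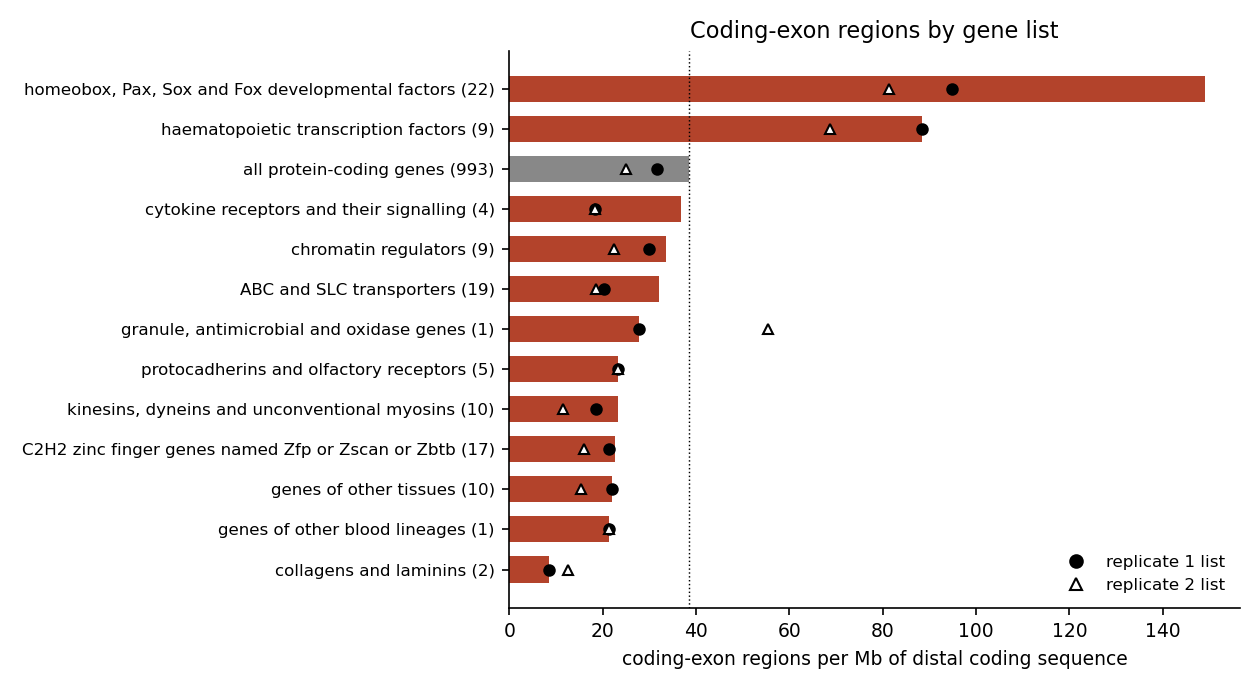
Coding-exon regions per Mb of distal coding sequence for 12 gene lists and all protein-coding genes (grey bar, dotted line at 38.5), with the number of regions in brackets. Circles and triangles are the lists of replicates 1 and 2. Developmental and haematopoietic transcription factors are the lists above all genes in every one of the 3.

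On the autosomes, coding-exon regions ran from 31.2 per Mb of distal coding sequence on chromosome 11 to 50.03 on chromosome 10. The X chromosome, present as a single copy in these male cells, had 14 regions, or 13.7 per Mb. Its other distal regions were also sparse, at 7.39 per Mb of chromosome against 19.1 to 27.0 on autosomes. What part copy number had was not tested. The Y chromosome had 0 coding-exon regions and 13 other distal ones.

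The weakest members show the lower limit of the list. Tpbgl had a fold of 1.89 in the series-level list, and the replicate 1 region that overlaps it by at least 1 bp had 12.4. A replicate's fold is that of the strongest overlapping region, whose summit can lie elsewhere. Irf2bp2 (2.41), a cofactor of interferon regulatory factor 2, and Uck2 (2.80), a uridine kinase, were in neither replicate's list.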

How the data were processed

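ATAC-seq regions of 2 biological replicates of GMP were analysed as deposited. Per the file headers and lists, the coordinates are in mm10. Each row carries the authors' fold enrichment, a ratio, and a summit. The ratio's denominator, the aligner and the peak caller were not given in the sources used here. Regions came mainly from the conservative series-level list, called on both replicates together and thresholded on the irreproducible discovery rate. Each replicate's own thresholded list gave replicate values. The fold served to rank and describe regions, and replicate folds, which come from separately made lists, are set side by side only. The files hold no counts, so depth and its precision are unknown.

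Rows overlapping by 1 bp were merged, taking the summit and fold of the row with the highest fold. Summits were placed, in order, within 1000 bp of any TSS of any transcript of a protein-coding gene, in a CDS, in another exon, in an intron or between genes (GENCODE vM21, GRCm38.p6). A promoter was called open where a region's summit lay within 1000 bp of a TSS of its gene. A region with its summit farther out can still reach into that distance. Density is regions per Mb of the class over 1000 bp from a TSS. Motifs were searched as letters within 50 bp of the summit. A CpG-rich window has, within 250 bp of the summit, at least 50% GC and an observed over expected CpG ratio of at least 0.6, a limit chosen after the files were opened. The host transcript was the APPRIS principal one, then the basic one, then that with the longest CDS. Background windows were taken at the middle of 148307 distal coding intervals.

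Named are the 20 regions with the highest fold in both replicates, up to 5 host genes per gene list by fold, hosts of 3 or more regions, up to 3 regions per motif, and the 3 weakest and 3 widest. Members and lists were chosen with earlier results of these data known. No test was made, because there is 1 group, and genes and regions are not replicates. Python 3.11.15, numpy 2.4.6, pandas 2.3.3, pysam 0.24.0 and matplotlib 3.10.9 were used. The merging and classing were checked on simulated data. Alternatives covered the list, the replicate, the fold, the TSS distance, the summit, the CDS set, the window and the overlap. A few genes and 1 gene list are not reported here.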

Additional observations from a re-analysis of the deposited data

How the results depend on the processing

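Only the lists' own construction and 2 replicates bear on these values, and the cause of each move was not tested. The number of coding-exon regions (1002) became 1989 in the looser replicated list and 448 among regions at or above the median fold, and leaving out a replicate gave 651 to 825. Their share of distal regions (1.74%) became 1.73% in the other IDR thresholded list, 1.96% in the replicated list, 1.61% in the upper part by fold, 2.01% and 1.36% with limits of 500 and 2500 bp from a TSS, 1.92% by the middle of the region and 1.69% with basic CDS. It was 2.02% with TSSs of protein-coding transcripts only (1203 regions), an alternative chosen after seeing the data, and 1.68% in either replicate's list. The share in both replicates (59.9%) became 30.4% in the replicated list, 87.3% in the upper part by fold and 97.7% with the replicates' looser lists. Starting from a single replicate's list it was 73.2% to 93.5%. A region always overlaps its own list, so these values are shares found in the other replicate and are not the same measure. The CTCF share (5.39%) became 5.69% in the IDR thresholded list, 3.77% in the replicated list, 5.80% in the upper part by fold, 4.68% and 4.63% at 500 and 2500 bp, 3.61% by the middle of the region, 6.09% within 100 bp of the summit and 5.68% to 6.06% without a replicate. For the other results, 68 of 164 alternative values moved by less than the spread between the replicates' lists and 96 by more. The share of host genes with an open promoter (73.3%) ranged from 48.5% in the upper part by fold to 86.1% with promoters of 2500 bp. The upper part by fold also leaves out the weaker promoter regions. The share over all genes was not taken in either setting, so these values do not compare hosts with other genes.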

Other observations

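The hosts that are not protein-coding genes were chosen after their values were seen. In all, 9 regions lay in such hosts: 6 in variable segments of the immunoglobulin heavy chain, 1 in a T cell receptor alpha variable segment (Trav6d-7, fold 6.65, replicate 1 only) and 2 in polymorphic pseudogenes, Olfr650-ps1 and Cd1d2 (15.6, with 16.8 and 12.7 in replicates 1 and 2). Variable segments are the exons that B and T cells join to build their antigen receptors, and the start sites of unjoined segments are not counted among protein-coding TSSs. The strongest immunoglobulin region was in Ighv1-5, with 14.3 (13.6 and 11.6), and Ighv1-71 had 11.6 (12.2 and 9.33). Ighv1-62-2 had 10.7 and was in replicate 1 only (12.5), as was Ighv8-9 with 6.05 (6.07). Ighv1-62-1 (7.08) and Ighv1-67 (6.21) were in neither replicate's list. Segments of 1 family can be similar in sequence, and how reads were assigned among them is not known here.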
